A study of Mus musculus with 4 samples.

Results

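Tropomyosins are coiled-coil proteins that lie end to end along actin filaments and set which other proteins can bind there. The account below covers the 4 mouse tropomyosin genes, Tpm1, Tpm2, Tpm3 and Tpm4. They were found as the rows of the deposited transcript tables that carry these gene symbols, which gave 47 transcripts out of 141738, and 4 genes out of 55203. Tpm1 had 21 transcripts, Tpm2 had 6, Tpm3 had 16 and Tpm4 had 4.

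One tropomyosin gene makes several proteins. A start at the first promoter gives a long form, which opens with coding exon 1a and then holds an exon 2. A start at a promoter inside the gene gives a short form, which opens with exon 1b and has no exon 2. Later in the gene, exons 6a and 6b exclude each other, and the last coding exon also has alternatives. Exon 2a of Tpm1 is known as the exon of smooth muscle, whereas most other cells use 2b. Long forms from Tpm1 and Tpm2 are known from muscle, and short forms from Tpm3 and Tpm4 from the actin cytoskeleton of most cells, epithelium included.

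Total RNA of mouse gut was sequenced in 4 libraries, made as a bulk measurement to set beside MERFISH, a microscopy method that counts RNA molecules in place. All mice were wild-type C57BL/6NTac males of 8 to 12 weeks, specific pathogen free. The 2 libraries of the RVC group carried the label 4 mM ribonucleoside vanadyl complex, an inhibitor of ribonucleases, and the 2 libraries of the other group carried the label fresh frozen. One protocol text, with the RVC rinse, stands with both groups. Every library has a batch number that no other library shares, and what differs by batch cannot be told apart from what differs by group. The labels do not say that the libraries came from separate animals, so the spread between these samples may be technical. With only 2 libraries in each group, the p-values below also rest on a spread shared across features. They name the ileum as the tissue, while the protocol names the distal colon. The 8 colon markers summed to between 9181 and 12390 FPKM, a level that divides a transcript's fragments by its length and by the fragments mapped in the library, in the 4 libraries. Of the colon sum, Prdx6 gave 2556 to 4451 FPKM and Car1 1576 to 1781. The 8 ileum markers summed to between 146 and 209 FPKM, of which Mep1a gave 119 to 184 and Apob 16.7 to 30.1. Fabp6 and Slc10a2 lay between 2.33 and 3.96 FPKM. Apoa1 and Lct were below 1 FPKM in all 4 libraries, and Fgf15 and Apoa4 were listed at 0 in all 4. On these sums the markers went against the tissue label, although not every ileum marker was near 0.

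Relative depth ran from 72.6% to 100% of the deepest library. Absolute depth is unknown. Below, values given for a pair, or 4 values in a row, follow the order RVC 1, RVC 2, fresh frozen 1, fresh frozen 2. The ranges printed beside single FPKM values are the confidence bounds in the deposited tables, and cover the estimate within one library. With 2 libraries against 2, an exact permutation test of a single value cannot go below p = 0.333. Group differences were therefore tested with limma over all features, and called at a Benjamini-Hochberg adjusted p under 0.05. At the gene level 5 of 13771 genes were called, at the level of single transcripts 1 of 24174, and for a transcript's usage within its gene 1 of 18514. No tropomyosin gene or transcript was among them.

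The alternative exons that set the main transcripts apart are shown first, because the results turn on which of them a transcript holds. They were read from the genome assembly GRCm39 at the positions of the GENCODE vM39 annotation, and all are coding exons printed 5′ to 3′ in the direction of the gene. The second coding exon of Tpm1 has a pair of versions of 126 nt, 2a at chr9:66955406-66955531 and 2b at chr9:66955068-66955193, on the minus strand. Capitals mark the bases that differ between them.
Tpm1 exon 2a: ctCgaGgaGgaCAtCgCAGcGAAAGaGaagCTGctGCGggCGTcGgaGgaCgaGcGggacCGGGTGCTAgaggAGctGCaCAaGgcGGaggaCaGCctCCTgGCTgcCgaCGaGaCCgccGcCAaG
Tpm1 exon 2b: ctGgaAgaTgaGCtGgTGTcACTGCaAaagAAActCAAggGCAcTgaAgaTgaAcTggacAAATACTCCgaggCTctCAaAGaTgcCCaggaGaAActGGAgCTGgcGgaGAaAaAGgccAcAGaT
They differed at 66 of 126 bases, an identity of 47.6%. Exon 2b was closer to the single exon 2 of Tpm2, at 76.2% identity, than 2a was, at 53.2%.

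The sixth coding exon of Tpm1 also has a pair of versions, 6a at chr9:66939748-66939823 and 6b at chr9:66939233-66939308, each of 76 nt. Capitals again mark the differing bases.
Tpm1 exon 6a: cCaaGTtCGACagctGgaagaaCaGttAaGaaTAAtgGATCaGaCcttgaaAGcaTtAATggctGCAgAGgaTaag
Tpm1 exon 6b: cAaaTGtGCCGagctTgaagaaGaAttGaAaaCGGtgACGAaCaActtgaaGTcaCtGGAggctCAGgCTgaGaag
Exons 6a and 6b were 56.6% identical. The single exon 6 of Tpm4 shared 71.1% of bases with 6b of Tpm1 and 53.9% with 6a.

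The last coding exon of Tpm2 is 9a, known from skeletal muscle, at chr4:43515924-43516003, or 9d, known from smooth muscle and other cells, at chr4:43514782-43514861. Both are on the minus strand and 80 nt long, and capitals mark where they differ.
Tpm2 exon 9a: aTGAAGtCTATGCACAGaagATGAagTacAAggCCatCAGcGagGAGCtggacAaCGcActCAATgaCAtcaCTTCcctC
Tpm2 exon 9d: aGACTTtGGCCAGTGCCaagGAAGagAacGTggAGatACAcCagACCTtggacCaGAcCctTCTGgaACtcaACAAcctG
Their identity was 41.3%.

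The first coding exon of the short forms, 1b, exists in Tpm1 (chr9:66950860-66950991, minus strand), Tpm3 (chr3:89987039-89987170, plus strand) and Tpm4 (chr8:72889166-72889297, plus strand). In the Tpm1 sequence, capitals mark bases that are not the same in all 3 genes. In the other pair, capitals mark bases that differ from Tpm1.
Tpm1 exon 1b: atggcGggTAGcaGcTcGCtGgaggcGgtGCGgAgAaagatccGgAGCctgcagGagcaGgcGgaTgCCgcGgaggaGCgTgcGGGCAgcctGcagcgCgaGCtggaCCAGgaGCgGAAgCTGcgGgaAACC
Tpm3 exon 1b: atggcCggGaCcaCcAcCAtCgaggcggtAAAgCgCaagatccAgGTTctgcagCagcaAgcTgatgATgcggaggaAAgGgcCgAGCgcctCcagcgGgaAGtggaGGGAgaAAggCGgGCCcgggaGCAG
Tpm4 exon 1b: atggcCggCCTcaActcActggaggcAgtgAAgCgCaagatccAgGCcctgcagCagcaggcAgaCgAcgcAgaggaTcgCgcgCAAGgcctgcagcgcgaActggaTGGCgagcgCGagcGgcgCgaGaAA
Over these 132 nt, Tpm1 and Tpm4 were 72.0% identical, and Tpm1 and Tpm3 63.6%. The longest stretch without a difference between Tpm1 and Tpm4 was 13 nt. Between main transcripts of different tropomyosin genes the longest identical run was 37 nt, which Tpm1-214 and Tpm1-215 share with Tpm2-203.

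**Figure D1:**
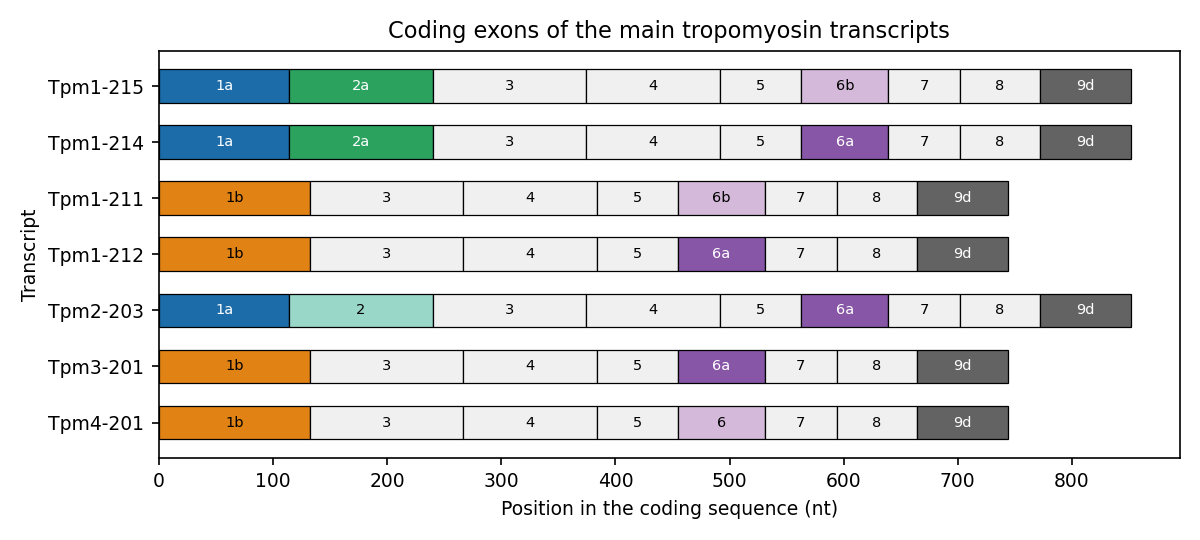
Coding exons of the 7 main tropomyosin transcripts, drawn to scale along the coding sequence in nt from the start codon; colours and labels mark the alternative exons. The 3 long forms (Tpm1-215, Tpm1-214, Tpm2-203) open with 1a and an exon 2, and the 4 short forms open with 1b.

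Of the 47 transcripts, 14 were long forms, 10 were short forms, 2 had another complete coding sequence and 21 had none, being retained introns, decay targets or incomplete models. Only 8 reached 5% of their gene's sum in any library. The other 39 ranged from values near 0 to 11.1 FPKM, and 5 of them, all of Tpm1, stayed below 0.01 FPKM in every library.

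Tpm1 and Tpm2 were the abundant genes, and Tpm3 and Tpm4 were lower. Summed over transcripts, Tpm1 was 314 ± 64.4 FPKM over the 4 libraries (SD, n = 4), Tpm2 264 ± 109, Tpm3 73.0 ± 5.24 and Tpm4 39.7 ± 3.64. FPKM is a level per length, so the genes can be set beside each other on the deposited lengths. Tpm1 and Tpm2 did not differ beyond their spread, since Tpm2 was below Tpm1 in 3 libraries and above it in RVC 2. Tpm3 was below both and above Tpm4 in every library.

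Tpm2 (ENSMUSG00000028464, chr4:43514711-43523765, minus strand), whose product is the beta-tropomyosin of muscle, had the largest group difference among the 4 genes. Its sum was 267 FPKM in RVC 1 and 416 in RVC 2, against 190 in fresh frozen 1 and 182 in fresh frozen 2. Both RVC libraries lay above both fresh frozen libraries, and the RVC libraries differed from each other by 0.63 on the log2 scale. On log2(scaled FPKM + 1), the log2 fold change was 0.85 with a standard error of 0.199, and its limma adjusted p was 0.135, which missed the threshold. Without RVC 2 the log2 fold change was 0.53.

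Tpm1 (ENSMUSG00000032366, chr9:66929872-66956688, minus strand), whose product is alpha-tropomyosin, had sums of 303 FPKM in RVC 1 and 408 in RVC 2, against 271 and 274 in the fresh frozen pair. The groups did not overlap, although RVC 1 was near the fresh frozen pair. The log2 fold change was 0.37 with a standard error of 0.158 (limma adjusted p = 0.271), and without RVC 2 it was 0.16.

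Tpm3 (ENSMUSG00000027940, chr3:89979956-90008209, plus strand), the source of widespread short forms and of a slow skeletal muscle form, was close to level across libraries. It was 78.1 and 75.5 FPKM in the RVC pair, and 72.7 and 65.9 in the fresh frozen pair. The difference was 0.15 in log2 fold change, with a 95% interval from -0.10 to 0.40 (limma adjusted p = 0.457). Tpm4 (ENSMUSG00000031799, chr8:72884018-72906986, plus strand), a gene of the non-muscle cytoskeleton, was 34.4 and 42.4 FPKM in the RVC pair, and 41.4 and 40.8 in the fresh frozen pair. Here the groups overlapped, and the log2 fold change was -0.10, with a 95% interval from -0.40 to 0.20 (limma adjusted p = 0.686). Without RVC 1 it changed sign, to 0.043.

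Over the 4 genes, none passed the adjusted threshold, against 0.0363% of all genes tested. Groups did not overlap for 3 of 4 genes, all higher in RVC, and for 53.2% of all genes tested, made up of 26.5% with RVC higher and 26.6% with RVC lower. Unadjusted p was under 0.05 for 2 of 4, Tpm1 and Tpm2, and for 18.4% of all genes tested, of which 9.38% had RVC higher and 8.99% lower. The median log2 fold change of the 4 genes was 0.26, and that of all genes tested was 0.0066.

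**Figure D2:**
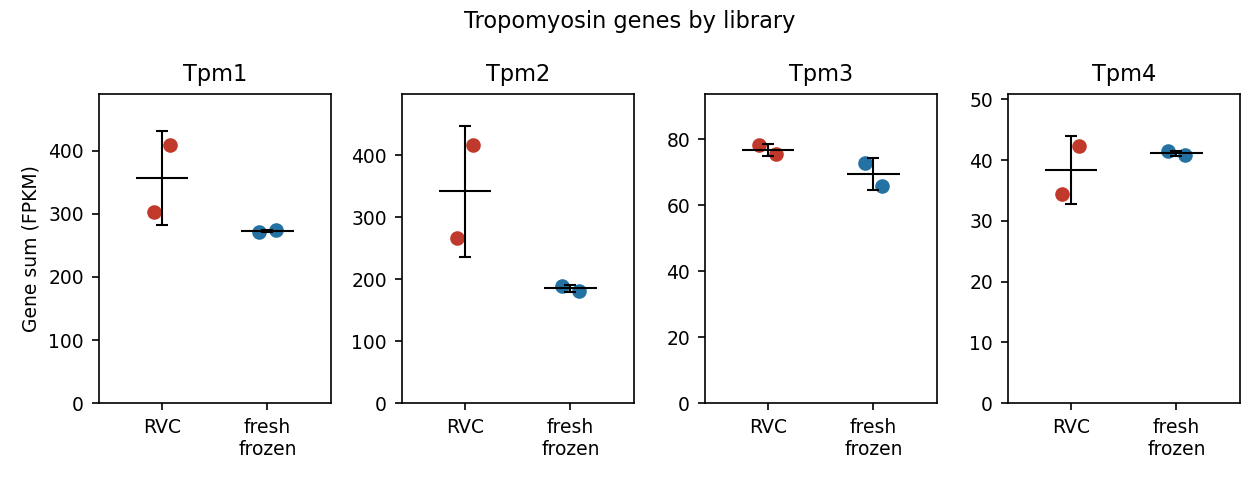
Gene sums in FPKM for the 4 tropomyosin genes, 1 point per library, with bars for the group mean and SD (n = 2); each panel has its own vertical axis from 0. Both RVC points lie above both fresh frozen points for Tpm1, Tpm2 and Tpm3, and the groups overlap for Tpm4.

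Within Tpm1, the difference between the groups lay mostly in 1 transcript. Tpm1-215 (ENSMUST00000113705, 1759 nt), a long form with exons 1a, 2a, 6b and 9d, is the arrangement known from smooth muscle. It was 156 FPKM (148 to 164) in RVC 1 and 234 FPKM (222 to 245) in RVC 2. In fresh frozen 1 it was 98.4 FPKM (92.7 to 104) and in fresh frozen 2 it was 101 FPKM (96.0 to 107). The bounds of the RVC libraries did not reach those of the fresh frozen ones. Its share of the Tpm1 sum was 51.4% and 57.2% in RVC 1 and 2, and 36.3% and 37.0% in fresh frozen 1 and 2. The difference in mean share was 17.7 percentage points, between 14.8 and 20.5 when each library was left out in turn. The log2 fold change of its level was 0.93 with a standard error of 0.207 (limma adjusted p = 0.234). Its usage, the log2 ratio of the transcript to the rest of the gene, differed by 1.03 with a standard error of 0.222 (limma adjusted p = 0.282). Neither passed the threshold.

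Tpm1-214 (ENSMUST00000113701, 1677 nt) holds 6a where Tpm1-215 holds 6b, and is otherwise the same in its coding exons. It was 68.4 and 87.0 FPKM in the RVC pair, and 77.6 and 80.4 in the fresh frozen pair. The groups overlapped in level, with a log2 fold change of -0.03 and a 95% interval from -0.40 to 0.35 (limma adjusted p = 0.938). Without RVC 1 it was 0.14. Its share of the gene was 22.5% and 21.3% in RVC 1 and 2 against 28.6% and 29.3% in fresh frozen 1 and 2. In usage it differed by -0.54 (limma adjusted p = 0.437).

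Tpm1-211 (ENSMUST00000113695, 1607 nt), the short form with exons 1b, 6b and 9d, went the other way in level. It was 32.5 and 44.5 FPKM in the RVC pair, and 47.7 and 57.7 in the fresh frozen pair. Its RVC values lay below both fresh frozen values, the only tested tropomyosin transcript of which this held, though RVC 2 and fresh frozen 1 were close and their deposited bounds (41.0 to 48.0 and 44.0 to 51.4) overlapped. Its log2 fold change was -0.45 with a standard error of 0.193 (limma adjusted p = 0.354), and without RVC 1 it was -0.23. Its share was 10.7% and 10.9% in RVC 1 and 2, and 17.6% and 21.0% in fresh frozen 1 and 2. In usage it differed by -0.96 with a standard error of 0.236 (limma adjusted p = 0.321).

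Tpm1-212 (ENSMUST00000113696, 1714 nt), the short form with 6a, differed by sample number more than by group. It was 17.7 FPKM in RVC 1 and 16.5 in fresh frozen 1, but 6.40 in RVC 2 and 8.58 in fresh frozen 2. The log2 fold change was -0.13 with a standard error of 0.516 (limma adjusted p = 0.917), and changed sign without RVC 2, to 0.53. The erythroid gene Hbb-bs was likewise 146 and 148 FPKM in the libraries numbered 1 and 41.9 and 29.4 in those numbered 2, and its part in the result was not tested. Hbb-bs was named after its values were seen.

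**Figure D3:**
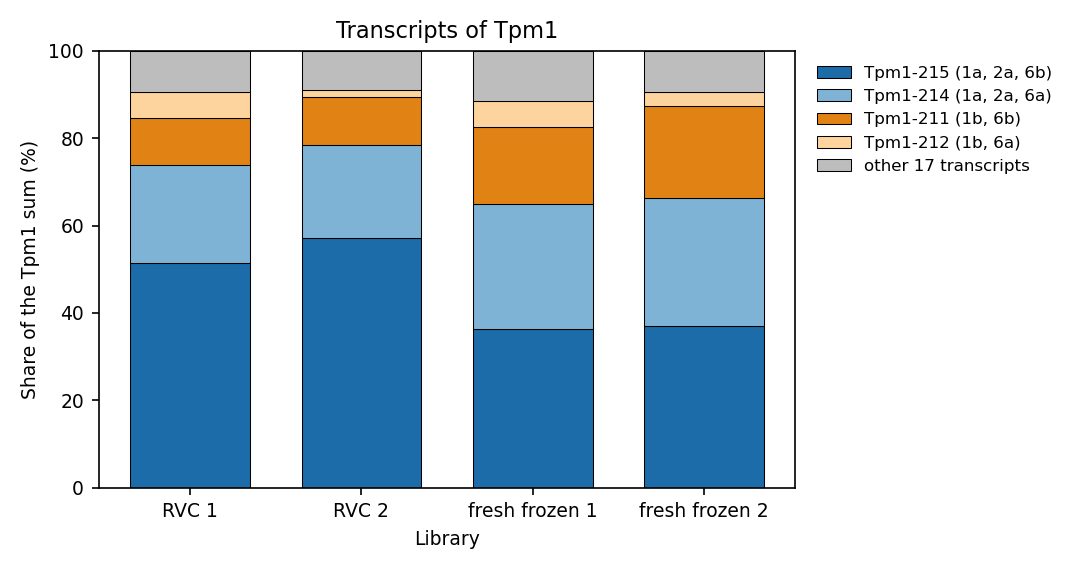
Shares of the Tpm1 sum in percent for the 4 libraries, stacked by transcript, with the other 17 transcripts together in grey. The share of Tpm1-215 is 51.4% and 57.2% in the RVC libraries against 36.3% and 37.0% for fresh frozen, and the share of Tpm1-211 runs the other way.

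Summed by class, the long forms of Tpm1 were 239 and 338 FPKM in RVC 1 and 2, and 192 and 195 in fresh frozen 1 and 2. The short forms were 55.2 and 57.7 FPKM in RVC 1 and 2, and 70.0 and 70.6 in fresh frozen 1 and 2. The long sum of Tpm1 was thus higher and its short sum lower in the RVC libraries, with no overlap in either. Most of this lay in Tpm1-215 among the long forms and Tpm1-211 among the short ones. Not every form went with its class. The log2 fold change was -0.03 for the long Tpm1-214 and 0.35 for the short Tpm1-208, both with overlapping groups. The ratio of long to short was 4.33 and 5.85 in the RVC pair, and 2.74 and 2.77 in the fresh frozen pair. Over all 4 genes, long forms summed to 498, 742, 380 and 372 FPKM in the same order of libraries, and short forms to 155, 161, 177 and 164. The ratio was 3.21, 4.60, 2.15 and 2.27. In mean log2 of the scaled sums, the long forms of the 4 genes differed by 0.70 and the short forms by -0.10, so most of the difference was in the long forms.

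Exon 2a, the smooth muscle version, was in most of the long Tpm1 signal in every library. Transcripts with 2a summed to 224, 321, 176 and 182 FPKM in the 4 libraries in order, and those with 2b to 14.6, 17.2, 15.8 and 13.7. The ratio of 2a to 2b was 15.4, 18.7, 11.2 and 13.3, so 2a dominated in both groups, and the sums with 2b overlapped between groups. In the long forms 6b outweighed 6a by ratios of 2.36 and 2.80 in RVC 1 and 2, and 1.44 and 1.38 in fresh frozen 1 and 2. That ratio did not overlap between the groups, and followed Tpm1-215 against Tpm1-214. In the short forms it was 1.77 and 5.08 in RVC, and 2.53 and 6.45 in fresh frozen, so it overlapped. Exon 9d closed transcripts that made up 92.6% to 93.4% of the Tpm1 sum in every library. These shares are Cufflinks estimates of how reads divide between transcripts that overlap along most of their length, and no exon-junction counts were used.

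Tpm2 was almost wholly 1 transcript. Tpm2-203 (ENSMUST00000107914, 1164 nt), a long form with exons 1a, 2, 6a and 9d, made up 96.2%, 96.6%, 98.4% and 96.5% of the gene in the 4 libraries in order. Its level was 257 FPKM (245 to 269) in RVC 1 and 402 FPKM (384 to 420) in RVC 2. It was 187 FPKM (177 to 196) in fresh frozen 1 and 175 FPKM (167 to 184) in fresh frozen 2. As for the gene, both RVC values were above both fresh frozen values. The log2 fold change was 0.83 with a standard error of 0.226 (limma adjusted p = 0.260), and without RVC 2 it was 0.51. In usage it differed by -0.42 with a 95% interval from -1.37 to 0.52 (limma adjusted p = 0.714). The 2 Tpm2 transcripts that end in 9a, Tpm2-201 and Tpm2-202, together held 0.378% to 0.536% of the gene. The 401-nt model Tpm2-206, which lacks a complete coding sequence, was 8.21, 10.9, 1.29 and 4.11 FPKM in the 4 libraries in order. Its log2 fold change was 1.61 (limma adjusted p = 0.251), and 1.02 without fresh frozen 1.

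Tpm3-201 (ENSMUST00000029549, 2230 nt), the short form with 1b, 6a and 9d, made up most of Tpm3. It was 65.0 and 61.1 FPKM in the RVC pair, and 64.6 and 57.6 in the fresh frozen pair. The groups overlapped, with a log2 fold change of 0.05 and a 95% interval from -0.23 to 0.33 (limma adjusted p = 0.846). Without fresh frozen 2 it was -0.020. Its share of the gene was 83.3% and 80.9% in RVC 1 and 2, and 88.9% and 87.4% in fresh frozen 1 and 2. The usage difference was -0.63 (limma adjusted p = 0.410). Most of the rest of the gene was in 11 models without a complete coding sequence, which summed to 10.3 and 11.4 FPKM in RVC 1 and 2 against 6.31 and 6.98 in fresh frozen 1 and 2. Among them the retained-intron model Tpm3-212 was 3.32, 2.55, 0.152 and 1.39 FPKM in the same order, with a log2 fold change of 1.24 (limma adjusted p = 0.274). That value was 0.70 without fresh frozen 1, and 2.30 with a pseudocount of 0.1 in place of 1. With a fresh frozen mean of 0.775 scaled FPKM, Tpm3-212 passed the filter on low values only through its RVC values. With only transcripts of complete coding sequence counted, the share difference of Tpm3-201 shrank from -6.02 to -1.87 percentage points. Long Tpm3 forms, of the kind known from slow skeletal muscle, held at most 1.31% of the gene. Tpm3 values are uncertain in one respect, since the processed copy Tpm3-rs7 shares an identical run of 628 nt with Tpm3-201, longer than a read pair's single read of 150 bases. Tpm3-rs7 was listed at 7.35 to 8.21 FPKM in the 4 libraries.

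Tpm4-201 (ENSMUST00000003575, 2158 nt), the short form, was 33.2 and 40.6 FPKM in the RVC pair, and 40.9 and 35.4 in the fresh frozen pair. Its groups overlapped, with a log2 fold change of -0.05 and a 95% interval from -0.41 to 0.32 (limma adjusted p = 0.899). Without RVC 1 the value was 0.092, and without fresh frozen 1 it was 0.039. It held 96.6%, 95.9%, 98.7% and 86.8% of the gene in the 4 libraries in order. The low share in fresh frozen 2 went with Tpm4-203, which has another, complete coding sequence and was 4.66 FPKM there, 11.4% of the gene, against at most 1.13 FPKM in the other libraries. Fresh frozen 2 stood apart from fresh frozen 1 as well as from the RVC libraries. No long Tpm4 form with a complete coding sequence is in the annotation.

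Of the 47 transcripts, 24 passed the filter on low values and were tested. None passed the adjusted threshold in level, against 0.00414% of all transcripts tested. Unadjusted p was under 0.05 for 5 of 24, all with RVC higher: Tpm1-215, Tpm2-203, Tpm2-206, Tpm3-212 and Tpm3-214. Among all transcripts tested 15.5% had such a p, 8.10% with RVC higher and 7.36% with RVC lower. Groups did not overlap for 12 of the 24, higher in RVC for 11 and lower for Tpm1-211, against 50.2% of all transcripts tested, made up of 25.8% higher and 24.4% lower. The share of 12 in 24 is thus near the background. Among the 11 higher in RVC, Tpm2-202, Tpm3-202, Tpm3-212 and Tpm3-214 had fresh frozen means under the filter's 1 scaled FPKM (0.931, 0.930, 0.775 and 0.601). They passed the filter only through their RVC values, so their direction was partly set by the filter. In usage, 0 of 24 passed, against 0.0054% of all tested, and 6 had an unadjusted p under 0.05, against 11.4% of all tested, 5.75% with RVC higher and 5.66% lower. These 6 were Tpm1-215 and Tpm3-212 with RVC higher, and Tpm1-211, Tpm1-214, Tpm2-202 and Tpm3-201 with RVC lower. Of them, Tpm3-212 and Tpm2-202 are among those that passed the filter only through their RVC values. Usage did not overlap between groups for 12 of 24, higher in RVC for 4 and lower for 8, against 43.8% of all tested, 21.7% higher and 22.2% lower. Usage values within a gene are tied, because a higher share of one transcript lowers the shares of the others. For Tpm1, 1 transcript was higher, Tpm1-215, and 6 were lower. These counts are therefore not counts of separate changes.

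**Figure D4:**
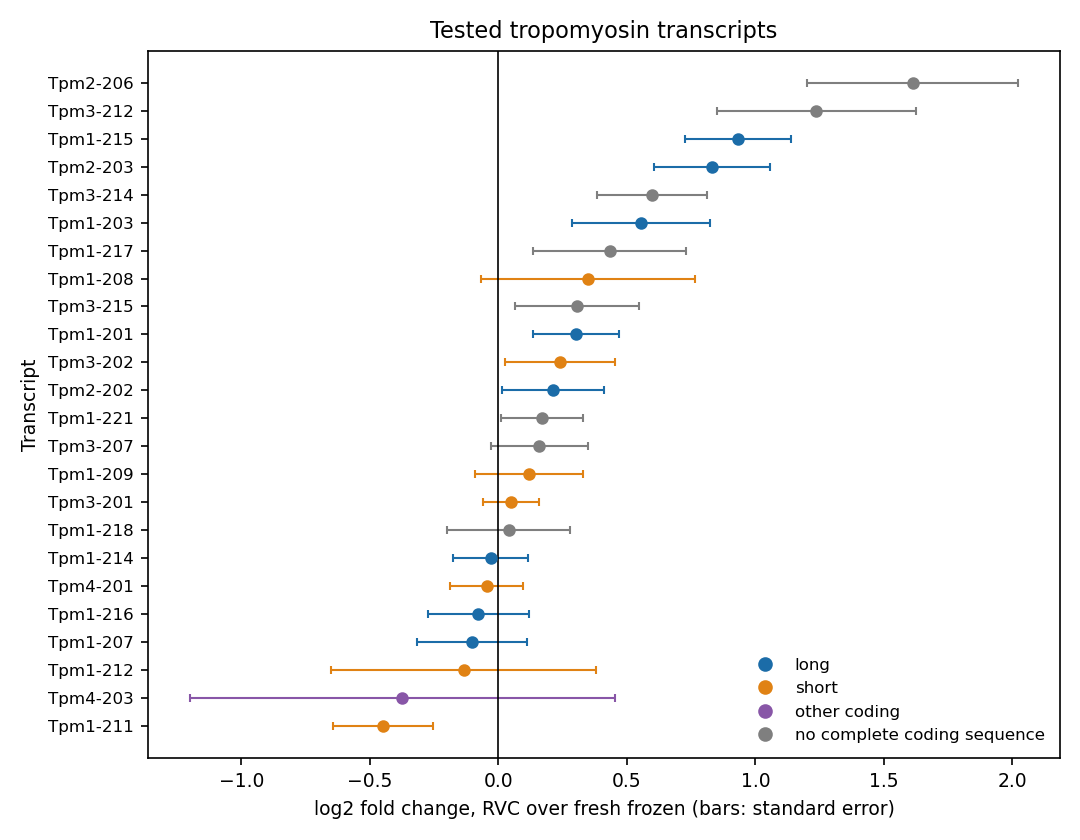
Log2 fold change, RVC over fresh frozen, of the 24 tested tropomyosin transcripts on log2(scaled FPKM + 1), with bars for the standard error, coloured by class. Furthest to the right are Tpm2-206 (1.61) and Tpm3-212 (1.24), which lack a complete coding sequence, then the long forms Tpm1-215 (0.93) and Tpm2-203 (0.83). The short form Tpm1-211 (-0.45) lies furthest to the left, and both long and short forms fall on either side of 0.

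The summed markers of smooth muscle and of endothelium were higher in both RVC libraries, as was the sum of the long forms, though not the long form Tpm1-214. The 13 smooth muscle markers summed to 1202 FPKM in RVC 1 and 1771 in RVC 2, against 758 in fresh frozen 1 and 806 in fresh frozen 2. All 13 had a positive log2 fold change, 11 with an unadjusted p under 0.05, none past the adjusted threshold, and the median was 0.65. Over all genes tested, 9.38% had an unadjusted p under 0.05 with RVC higher, and the median was 0.0066. The 13 epithelial markers summed to 10409, 10046, 10480 and 8487 FPKM in the 4 libraries in order, with a median log2 fold change of 0.09. The 8 endothelial markers summed to 28.6 and 28.3 FPKM in RVC 1 and 2 against 16.0 and 18.6 in fresh frozen 1 and 2, and all 8 had a positive log2 fold change, 7 with an unadjusted p under 0.05, none past the adjusted threshold, with a median of 0.56. The 7 fibroblast markers had a median of 0.23. In bulk tissue, fewer cells of a type and less RNA per cell cannot be told apart, and the part of these cell types in the tropomyosin differences was not tested.

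Set against the smooth muscle sum, Tpm1-215 was nearly level. It came to 12.97% and 13.18% of that sum in the RVC pair, and 12.99% and 12.59% in the fresh frozen pair. Tpm2-203 came to 21.4%, 22.7%, 24.6% and 21.8% in the same order. The highest library was 1.05 times the lowest for Tpm1-215 and at 24.6% against 21.4% for Tpm2-203. The sum is weighted by its most abundant markers, Actg2 and Acta2, whose log2 fold changes were 1.24 and 0.98. The 0.93 of Tpm1-215 lay below these and above every other marker of the list, whose median was 0.65. Its nearly level ratio therefore holds for this sum and not for each marker. Tpm1-214, with the same exon 2a, came to 5.69% and 4.91% in RVC 1 and 2 against 10.2% and 9.98% in fresh frozen 1 and 2. It did not keep level with smooth muscle markers, and the highest library was 2.09 times the lowest. Of the epithelial sum, Tpm1-214 came to 0.657%, 0.866%, 0.741% and 0.947%. Tpm3-201 was near level against the epithelial sum, at 0.625%, 0.608%, 0.617% and 0.678%. Against the smooth muscle sum its highest library was 2.47 times its lowest. A transcript close to level by itself, as Tpm3-201 was at 57.6 to 65.0 FPKM, keeps level with any sum that varies little. The ratio therefore does not tie Tpm3-201 to epithelium. Tpm4-201 came to 0.319%, 0.404%, 0.390% and 0.417% of the epithelial sum. Tpm1-211 was level against neither, with its highest library at 2.85 times its lowest for smooth muscle and 2.17 times for epithelium. These ratios are descriptions over 4 libraries, and each ratio's numerator and denominator come from 1 library.

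**Figure D5:**
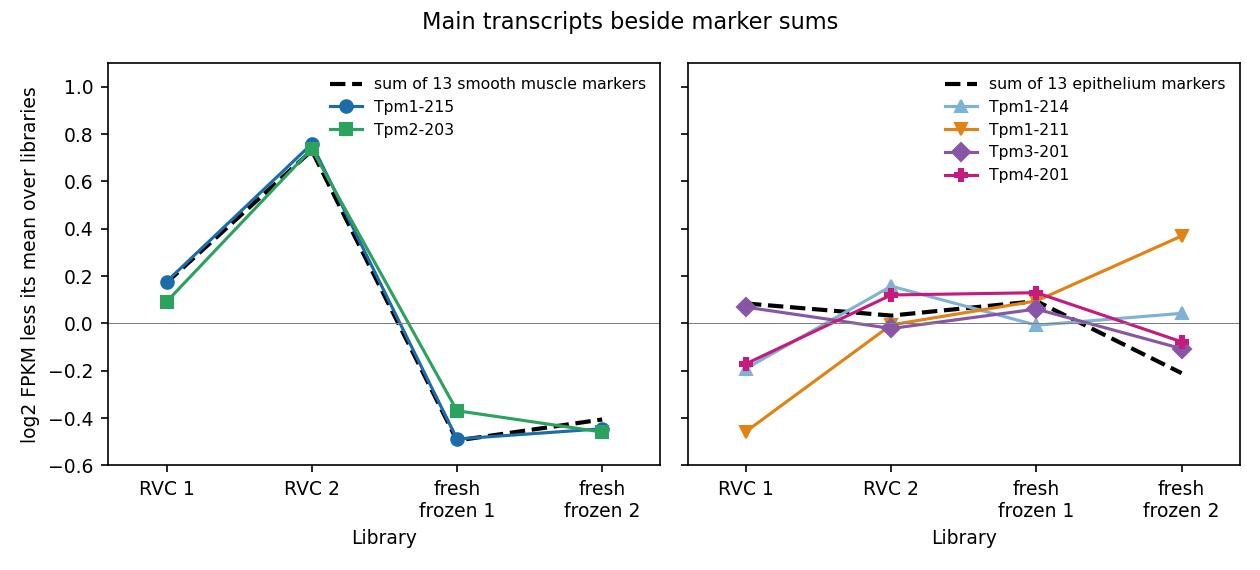
Log2 FPKM less its mean over the 4 libraries, for 6 main transcripts and for the summed markers of smooth muscle (left) and epithelium (right), with lines joining the libraries only to guide the eye. Tpm1-215 and Tpm2-203 lie close to the smooth muscle sum in every library, and Tpm1-211 departs from the epithelial sum.

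Markers of striated muscle were mostly near 0. Of 10 skeletal muscle markers matched, 7 were below 1 FPKM in all libraries, among them the myosins Myh1, Myh2 and Myh4, and Pvalb was listed at 0 in all 4. Of 7 cardiac markers, 6 were below 1 FPKM in all libraries. The exceptions were Ckm, at 3.81, 4.76, 2.58 and 1.86 FPKM in the 4 libraries in order, and cardiac Tnnt2, at 2.37 to 5.87. Tnni2 and Mylpf reached 1.80 and 1.29 FPKM in their highest library. Tnni1, a slow skeletal troponin outside these marker lists, was not low, at 37.6 to 51.3 FPKM. The marker values stand beside the low shares of Tpm2 transcripts with exon 9a and of long Tpm3 forms.

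The genes whose profiles over the 4 libraries were closest to Tpm2 were Myl9, Tgfb1i1 and Csrp1, at root mean square distances of 0.049, 0.057 and 0.060 on the log2 scale among 11800 genes compared. Myl9 encodes a regulatory light chain of smooth muscle and non-muscle myosin. Its scaled FPKM was 199 and 292 in the RVC pair, and 142 and 130 in the fresh frozen pair. Only 8 genes lay within 0.1 of Tpm2. For Tpm1, whose range was smaller, the nearest were Ier3, Crtap and Rpl34-ps1, with 181 genes within 0.1. For Tpm3 they were H2-Q5, Pygo2 and Naip1, with 2556 genes within 0.1, and for Tpm4 Bcs1l, Gpd1l and Galk2, with 1352.

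Partners of tropomyosin on the thin filament were taken as a list, of which Acta2, Actg2, Cnn1, Lmod1, Myh11 and Mylk also stand among the smooth muscle markers. Actin itself was the most abundant, with cytoplasmic Actb at 2758 and 2526 FPKM in RVC 1 and 2, and 2099 and 1974 in fresh frozen 1 and 2. Its log2 fold change was 0.38 (limma adjusted p = 0.274). All 4 tested actins had a positive log2 fold change, with a median of 0.68, and none passed the adjusted threshold. The smooth muscle actins Actg2 and Acta2 had 1.24 and 0.98 (limma adjusted p = 0.129 and 0.131). Of 9 genes of myosin II, the motor that pulls on actin, 8 had a positive value and the median was 0.24. The light chain Myl6 was 1280.0 and 1449 FPKM in RVC 1 and 2, and 1197 and 1121 in fresh frozen 1 and 2, with a log2 fold change of 0.24 (limma adjusted p = 0.405).

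Proteins that cap or bind the side of the thin filament gave 7 tested genes, 6 with a positive and 1 with a negative value, and a median of 0.33. Calponin Cnn1, which binds actin in smooth muscle, had 0.88 (limma adjusted p = 0.119), and Tmod3, a widespread cap of the pointed end of actin filaments, had -0.17 (limma adjusted p = 0.422). Of 8 troponins, the calcium switch of striated muscle, 3 were tested and 4 were below 1 FPKM in all libraries. Tnni1, the slow skeletal inhibitory subunit, was 48.7, 51.3, 42.6 and 37.6 FPKM in the 4 libraries in order. Among 10 regulators of splicing, 3 had a positive and 7 a negative value, with a median of -0.04. Rbpms, known as a regulator of smooth muscle splicing, was 10.7 and 14.3 FPKM in RVC 1 and 2 against 6.29 and 7.48 in fresh frozen 1 and 2 (log2 fold change 0.77, limma adjusted p = 0.129). Mbnl1 was 29.5 and 27.3 FPKM in RVC 1 and 2 against 34.8 and 37.0 in fresh frozen 1 and 2 (log2 fold change -0.32, limma adjusted p = 0.206). Ptbp1, a known repressor of muscle exons, had -0.10 (limma adjusted p = 0.690). No gene of these lists passed the adjusted threshold, and the genes named here other than Actb and Myl6 were chosen after their values were seen.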

How the data were processed

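RNA of 4 mouse gut libraries, 2 RVC and 2 fresh frozen, was sequenced as 150-bp read pairs after depletion of ribosomal RNA, per the labels' protocols. Reads were aligned with TopHat2 2.1.1 to GRCm39 and transcripts estimated with Cufflinks 2.2.1 at default parameters, per the submitters' processing notes and the series' design text. The annotation release and any strand setting are not given in the sources used here. The deposited values are FPKM per transcript with confidence bounds and a coverage signal, per the file headers. Cufflinks divides reads among overlapping transcripts by likelihood, so shares of a gene are estimates. Coverage, as deposited by the authors, was used for relative depth (median ratio of coverage to FPKM). It also took the place of FPKM in an alternative for the shares.

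Gene values are sums over transcripts. Libraries were scaled by median ratio, and log2(scaled FPKM + 1) was tested with limma 3.58.1 in R 4.3.3 (trend, two-sided, 4 libraries, no covariate). Features needed a mean scaled FPKM of at least 1, a length of at least 300 nt and status OK. Usage is log2 of the transcript less log2 of the rest of its gene, with the same pseudocount of 1. Adjustment was over all features of a level. The fits were also run on data simulated from limma's own fitted variances with independent errors. That run had no batch effect or error in dividing reads, so it cannot speak to either. Shares use the deposited FPKM. Of all transcripts, 99.1% were in GENCODE vM39, which gave transcript names and coding exons. Lengths of all 47 tropomyosin transcripts differ from it at most at their ends. Among the main transcripts the annotated length was greater by 966 nt for Tpm2-203, 390 nt for Tpm1-215 and 472 nt for Tpm1-214, all long forms. For the main short forms it was greater by 0 to 4 nt. FPKM divides by length, and what these differences do to levels between genes or classes was not tested. The starts in the files count from 0, and positions are printed counted from 1. Acta1 was not analysed here.

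Members and lists were chosen with earlier results of these data known. Transcripts with at least 5% of a gene's sum in a library were described singly. The 3 nearest genes by profile were named for each tropomyosin gene, predicted genes being passed over, and of the thin filament list the most abundant 2 and any past the threshold. Python 3.11.15 with pandas 2.3.3 and matplotlib 3.10.9 was used for tables and plots. Alternatives were a pseudocount of 0.1, no or upper-quartile scaling, no filter, a mean of at least 5 and no length minimum. Others were sums over transcripts of at least 300 nt, no trend, a replicate block and each library left out. Shares were also taken over complete coding sequences only, and with coverage in place of FPKM.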

Additional observations from a re-analysis of the deposited data

How the results depend on the processing

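No tropomyosin gene or transcript passed the adjusted threshold under any alternative tried, over every member that an alternative's filter let in. The smallest limma adjusted p was 0.069 for a gene, 0.142 for a transcript and 0.117 for usage. Of the 25 tropomyosin values followed singly, 15 kept their direction throughout. The numbers of features called by limma moved. At the gene level 5 were called, and 0 without a filter on low values (3531 with an unadjusted p under 0.05), 0 without the trend (2461), 0 with sums over transcripts of at least 300 nt (2577), 2 at a mean of at least 5, and 8 to 37 with 1 library left out. For transcripts 1 was called, 0 without the filter (9167 unadjusted), 6 at a mean of at least 5, 7 without a length minimum, and 0 to 0 with each library left out. For usage 1 was called, 0 with a pseudocount of 0.1 (1874 unadjusted), 0 without the filter (8662), 11 at a mean of at least 5, and 0 to 0 with each library left out. The cause was not tested.

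Sample numbers are shared between the groups, but nothing in the labels makes them pairs, and the deviations of same-numbered samples correlated at -0.134 over genes. The replicate block gave 112 calls for genes and 0 for usage (1968 unadjusted). The crossed pairing, chosen after seeing the data, gave 12 for genes and 0 for usage (1953 unadjusted).

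Values that changed sign were small or rested on 1 library. In log2 fold change of level, Tpm4 ran from -0.25 to 0.043 with 1 library left out, the last without RVC 1. Tpm3-201 ran from -0.020 (without fresh frozen 2) to 0.12, and Tpm4-201 from -0.19 to 0.092 (without RVC 1, and 0.039 without fresh frozen 1). Tpm1-212 ran from -0.81 to 0.53 (without RVC 2, and 0.28 without fresh frozen 1), and Tpm1-214 from -0.20 to 0.14 (without RVC 1, and 0.0071 without fresh frozen 2). Tpm4-203 was 0.39 with a pseudocount of 0.1. In usage, Tpm2-203 ran from -0.89 to 0.046 (without fresh frozen 1), Tpm4-201 from -0.81 (without fresh frozen 2) to 1.44, and Tpm1-212 from -1.43 to 0.39 (without RVC 2), and Tpm4-203 was 0.44 with a pseudocount of 0.1. In share, Tpm2-203 differed by 0.098 and Tpm3-201 by -1.87 percentage points with complete coding sequences only, and with 1 library left out Tpm4-201 by -2.48 (without fresh frozen 2) to 9.45, Tpm4-203 by -9.21 to 2.19 (without fresh frozen 2), and Tpm1-212 by -3.04 to 1.23 (without RVC 2, and 0.57 without fresh frozen 1). Tpm1-215 stayed between 0.64 and 1.22 in level and between 0.867 and 1.199 in usage, and Tpm2 between 0.53 and 1.16. Absolute depth is unknown, so no limit from depth was set.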
